A study of Mus musculus with 6 samples.

Results

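The genes described here are 9 genes of cell cycle arrest and cellular senescence: the cyclin-dependent kinase (CDK) inhibitor genes Cdkn1a, Cdkn1b, Cdkn2a, Cdkn2b and Cdkn2c, the p53 gene Trp53 and its regulator Mdm2, and the senescence marker genes Glb1 and Lmnb1. They were chosen by gene name. Of the 9, 8 have a row among the 22695 rows of the count table and 7 passed the filter on low counts, Cdkn2a being the one that did not. Glb1 was not analysed here. The samples came from inguinal white fat, a depot under the skin near the hind limb, taken at 20 months of age. Of these, 3 were wild-type (WT) on C57BL/6J and 3 GSNOR knockout (GSNOR KO) on C57BL/6J. GSNOR is the S-nitrosoglutathione reductase encoded by Adh5, and the labels name no other allele, treatment, sex or Cre driver. The series set out to find the transcripts behind a difference in lipid metabolism between these genotypes. Replicates are numbered 1 to 3, but no label says whether a number is 1 animal. The p-values therefore cover only the spread seen among these libraries, which may be technical.

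Cells leave the cycle when CDK inhibitors block the kinases that phosphorylate the retinoblastoma protein RB, which then keeps E2F transcription factors silent. The CIP/KIP proteins p21 (Cdkn1a) and p27 (Cdkn1b) act on cyclin-CDK complexes, and the INK4 proteins p16 (Cdkn2a), p15 (Cdkn2b) and p18 (Cdkn2c) bind CDK4 and CDK6 and keep D-type cyclins off them. DNA damage stabilises p53, which switches on Cdkn1a and Mdm2, and MDM2 in turn marks p53 for degradation. Senescent cells are known to gain p16 and p21, to lose lamin B1, the product of Lmnb1, and to show high lysosomal beta-galactosidase, the product of Glb1. They accumulate in the fat of old and obese mice.

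Promoter sequences of Cdkn1a, Cdkn2a and Cdkn2b are shown because they bear on what a count per gene can tell. Cdkn1a and Cdkn2a each have 2 start sites whose transcripts are counted together, and Cdkn2b, the neighbour of Cdkn2a, is the member that came nearest to the threshold. Sequences are RefSeq bases on GRCm38.p6, written 5′ to 3′ on the gene's strand and ending at the first annotated exon. The capitals mark the pair of 10-base half-sites around a match to CATG, 6 bases of any kind and CATG, the core of a p53 response element, searched on both strands.
Cdkn1a upstream start, chr17:29090729-29090975, plus strand: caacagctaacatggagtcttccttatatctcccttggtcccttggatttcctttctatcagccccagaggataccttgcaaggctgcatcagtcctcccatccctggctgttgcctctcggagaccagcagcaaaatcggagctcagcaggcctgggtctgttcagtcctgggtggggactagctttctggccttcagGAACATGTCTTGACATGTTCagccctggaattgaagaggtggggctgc
Cdkn1a downstream start, chr17:29093519-29093768, plus strand: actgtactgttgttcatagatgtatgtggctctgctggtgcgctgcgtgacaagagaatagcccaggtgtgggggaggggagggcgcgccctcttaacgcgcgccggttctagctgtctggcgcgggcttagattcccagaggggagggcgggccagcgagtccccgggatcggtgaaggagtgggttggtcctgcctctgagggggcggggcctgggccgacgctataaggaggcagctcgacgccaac
Cdkn2a upstream start, chr4:89294654-89294869, minus strand: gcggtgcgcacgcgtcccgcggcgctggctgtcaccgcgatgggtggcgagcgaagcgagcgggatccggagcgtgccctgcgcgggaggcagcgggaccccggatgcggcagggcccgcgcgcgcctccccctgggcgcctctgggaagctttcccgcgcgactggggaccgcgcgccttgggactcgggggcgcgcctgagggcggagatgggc
Cdkn2a downstream start, chr4:89282193-89282442, minus strand: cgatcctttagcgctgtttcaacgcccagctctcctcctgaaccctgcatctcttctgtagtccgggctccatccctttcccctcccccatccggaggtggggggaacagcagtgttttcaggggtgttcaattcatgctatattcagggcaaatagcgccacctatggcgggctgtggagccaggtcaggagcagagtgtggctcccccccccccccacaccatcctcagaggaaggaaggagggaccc
Cdkn2b, chr4:89311040-89311282, minus strand: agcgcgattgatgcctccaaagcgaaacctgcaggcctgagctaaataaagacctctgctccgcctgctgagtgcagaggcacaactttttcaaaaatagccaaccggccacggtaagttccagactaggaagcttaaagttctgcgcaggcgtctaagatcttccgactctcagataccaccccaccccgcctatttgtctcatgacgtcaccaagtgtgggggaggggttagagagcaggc

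The upstream Cdkn1a window was the only window among those searched for the members that held the p53 core. No Cdkn2c or Lmnb1 window was among those searched. The Cdkn1a element lies at 29090928 to 29090947 on chromosome 17 and ends 31 bases before the RefSeq start. Of 32851 RefSeq promoter windows of 250 upstream bases, 161 (0.49%) held the same core. No match says only that these letters are not in the window, and MDM2's known p53 elements lie further into its gene. The Cdkn2a windows precede the first exons of p19ARF (upstream) and p16INK4a (downstream), which encode unrelated proteins through a shared second exon. A count for Cdkn2a cannot tell them apart, nor does a count for Cdkn1a say which start was used.

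The libraries held 20277594 to 23961574 counts. Adh5 was at 58.8 to 76.9 CPM in the 3 WT libraries and at 3.81 to 5.08 CPM in the 3 GSNOR KO libraries. CPM are read counts relative to library size, scaled by the trimmed mean of M values (TMM). The log2 ratio of GSNOR KO to WT, written log2FC from here on, was -3.97 for Adh5 (edgeR adjusted p = 0.000135). Fat markers were present in all 6 libraries: the 9 adipocyte markers summed to 9949 to 11947.5 CPM in WT and 10442 to 12033 CPM in GSNOR KO, led by Fabp4. WT replicate 1 stood apart. Its 8 measured skeletal muscle markers summed to 26863 CPM, against 11100 and 11998 CPM in the other WT libraries and 4360 to 7138 CPM in GSNOR KO. Its 15 macrophage markers summed to 700.9 CPM, against 301.1 and 315.1 CPM in the other WT libraries and 134.7 to 186.5 CPM in GSNOR KO. The 10 progenitor and fibroblast markers summed to 604.8 to 659.9 CPM in WT and 416.6 to 469.8 CPM in GSNOR KO, and the 7 endothelial markers to 965.1 to 1726 and 1761 to 2112 CPM. No measured marker of these lists was at 0 in all 6 libraries. The 6 epithelial markers summed to at most 3.82 CPM. In bulk tissue fewer cells of a type and less RNA per cell cannot be told apart.

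None of the 7 tested arrest and senescence genes was called in GSNOR KO against WT (edgeR quasi-likelihood test, Benjamini-Hochberg adjusted p under 0.05 over 13694 genes). Across all genes 964 were called, 7.04%, and 28.6% had an unadjusted p under 0.05, among them 1 of the 7, Cdkn2b. DESeq2, which called 17.1% of all genes, limma voom, which called 5.37%, edgeR with library totals only, which called 5.26%, and limma on FPKM also called 0 of the 7. Of the 7 log2FC values 6 were below 0 and 1 above, with a median of -0.22, against -0.04 over all genes tested. Among all 13694 genes 7462 were below 0 and 6232 above. The groups did not overlap in 2 of the 7, Cdkn2b and Lmnb1, both lower in GSNOR KO. Over all genes tested 36.7% did not overlap, and 19.5% were lower without overlap.

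**Figure D1:**
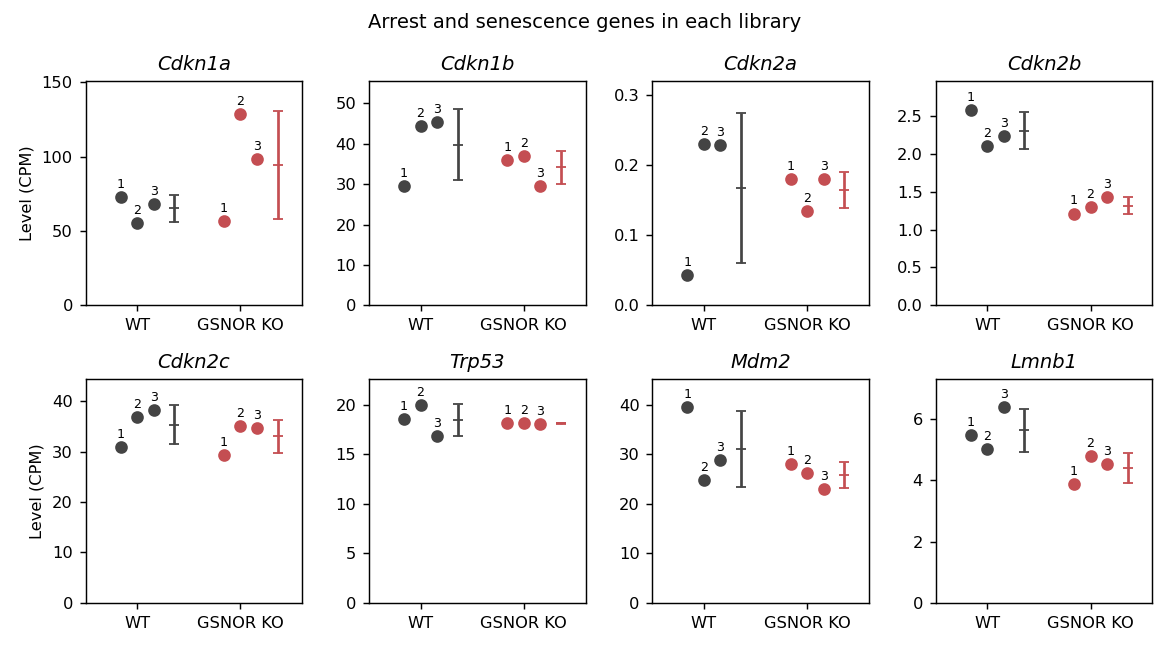
Level (CPM, linear axis from 0) of the 8 measured genes in each library, numbered by replicate, with mean and SD (n = 3) as a bar beside each group. Cdkn2b and Lmnb1 are lower in all 3 GSNOR KO libraries, Cdkn1a is high in GSNOR KO replicates 2 and 3 only, and Cdkn2a lies at or below 0.230 CPM throughout.

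Cdkn1a (ENSMUSG00000023067, chromosome 17, 29090976 to 29100727, GRCm38, plus strand) encodes p21, the inhibitor that p53 induces. It was at 72.9, 55.4 and 67.8 CPM in WT, in the order of the replicate numbers used throughout, and at 56.6, 128.9 and 98.4 CPM in GSNOR KO. GSNOR KO replicates 2 and 3 lay above every WT library, and GSNOR KO replicate 1 lay within the WT range. Mean levels were 65.3 ± 9.004 and 94.6 ± 36.3 CPM (SD, n = 3 each), giving a log2FC of 0.53 with a 95% interval of -0.12 to 1.19 (SE 0.281, edgeR adjusted p = 0.256). In fold terms the interval runs from 0.917 to 2.29. The log2FC was 0.80 when GSNOR KO replicate 1 was left out and 0.25 when replicate 2 was. A gene model on the other strand, AC167363.2, overlaps the gene, and without a stated strand setting reads of the pair cannot be told apart.

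Cdkn1b (ENSMUSG00000003031, chromosome 6, 134920401 to 134925513, plus strand) encodes p27, which holds resting cells out of the cycle. Its level was 29.6, 44.4 and 45.4 CPM in WT and 36.0, 36.9 and 29.5 CPM in GSNOR KO. WT replicate 1 lay just above the GSNOR KO minimum and the other WT libraries lay above all 3 GSNOR KO libraries. The log2FC was -0.22 (SE 0.184, 95% interval -0.65 to 0.21, edgeR adjusted p = 0.470). Without WT replicate 1, the library rich in muscle and macrophage transcripts, it was -0.37 with an adjusted p of 0.0428, in a fit that called 20.5% of all genes. It was -0.13 without WT replicate 2, -0.08 without WT replicate 3 and -0.12 without GSNOR KO replicate 3. It was the only member called when any 1 library was left out.

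Cdkn2b (ENSMUSG00000073802, chromosome 4, 89306299 to 89311039, minus strand) encodes p15, an INK4 inhibitor induced by TGF-beta. Its level was 2.58, 2.11 and 2.24 CPM in WT (59, 46 and 49 counts) and 1.21, 1.30 and 1.44 CPM in GSNOR KO (27, 29 and 32 counts). Every GSNOR KO library lay below every WT library. Mean levels were 2.31 ± 0.242 and 1.32 ± 0.113 CPM (SD, n = 3 each), giving a log2FC of -0.81 (SE 0.269, 95% interval -1.44 to -0.18). The unadjusted p was 0.0183 and the edgeR adjusted p 0.102, so the gene did not pass. Over the 15 other settings its log2FC stayed between -0.87 and -0.69, and its adjusted p between 0.0788 and 0.262. The progenitor, macrophage and muscle marker sums were lower in GSNOR KO too, and their part in the Cdkn2b difference was not tested.

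Cdkn2a (ENSMUSG00000044303, chromosome 4, 89274471 to 89294653, minus strand) was barely detected in this fat at 20 months. It had 1, 5 and 5 counts in WT and 4, 3 and 4 counts in GSNOR KO. Each genotype thus had 11 counts in all, and a count of 3 corresponds to 0.131 to 0.138 CPM. The ratio of the summed levels, GSNOR KO over WT, was 0.996 with an exact binomial 95% interval of 0.391 to 2.53, which covers counting error only. A difference smaller than that interval was not detectable at this depth, and the gene did not enter the test.

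Cdkn2c (ENSMUSG00000028551, chromosome 4, 109660876 to 109667189, minus strand) encodes p18, an INK4 inhibitor that rises when fat cells mature. It was at 30.9, 36.8 and 38.2 CPM in WT and at 29.3, 35.1 and 34.7 CPM in GSNOR KO, with overlapping groups. The log2FC was -0.10 (SE 0.129, 95% interval -0.40 to 0.20, edgeR adjusted p = 0.665). Its sign turned with FPKM and without WT replicate 3. Among the CDK inhibitors outside the 9, Cdkn1c, the imprinted p57 gene, was at 51.0, 120.3 and 143.3 CPM in WT and 120.4, 156.7 and 156.5 CPM in GSNOR KO (log2FC 0.46, SE 0.347, edgeR adjusted p = 0.421). WT replicate 1 was the low library there, and the log2FC was 0.16 without it and 0.79 without WT replicate 3. Neither of the 2 tested genes of that list was called.

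Trp53 (ENSMUSG00000059552, chromosome 11, 69580359 to 69591873, plus strand) was at 18.5, 20.0 and 16.8 CPM in WT and at 18.1, 18.2 and 18.1 CPM in GSNOR KO. The 3 GSNOR KO libraries lay inside the WT range. The log2FC was -0.02 (SE 0.111, 95% interval -0.28 to 0.24, edgeR adjusted p = 0.909), so the fold lies between 0.822 and 1.18. Since p53 is set largely by protein stability, its transcript level says little of its activity.

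Mdm2 (ENSMUSG00000020184, chromosome 10, 117688875 to 117710758, minus strand) was at 39.6, 24.9 and 28.9 CPM in WT and at 28.2, 26.2 and 23.0 CPM in GSNOR KO. WT replicate 1 was the highest library and the others overlapped. The log2FC was -0.27 (SE 0.184, 95% interval -0.70 to 0.16, edgeR adjusted p = 0.372) and -0.03 without WT replicate 1. Mdm4, which encodes the partner of MDM2 that masks the p53 activation domain, was named for its role after its values were seen. It was at 53.6, 112.6 and 102.0 CPM in WT and 79.6, 77.4 and 73.8 CPM in GSNOR KO (log2FC -0.22, edgeR adjusted p = 0.619). WT replicate 1 was the lowest of the 6 libraries for Mdm4 and the highest for Mdm2. The log2FC of Mdm4 was -0.45 without that library (edgeR adjusted p = 0.00721, in the fit that called 20.5% of all genes), -0.01 without WT replicate 2 (adjusted p = 0.981) and -0.07 without WT replicate 3 (adjusted p = 0.894).

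Lmnb1 (ENSMUSG00000024590, chromosome 18, 56707813 to 56753424, plus strand) encodes lamin B1 of the nuclear lamina. It was at 5.47, 5.01 and 6.40 CPM in WT and at 3.87, 4.80 and 4.54 CPM in GSNOR KO. Every GSNOR KO library lay below every WT library, by a small margin. Mean levels were 5.63 ± 0.712 and 4.40 ± 0.482 CPM (SD, n = 3 each), giving a log2FC of -0.35 (SE 0.196, 95% interval -0.81 to 0.10, edgeR adjusted p = 0.277). Its relative Lmnb2, which encodes lamin B2, went the other way and rose from 8.92 ± 1.07 to 14.7 ± 1.02 CPM (log2FC 0.72, SE 0.142, edgeR adjusted p = 0.0335), a call that held in 8 of the 15 other settings.

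**Figure D2:**
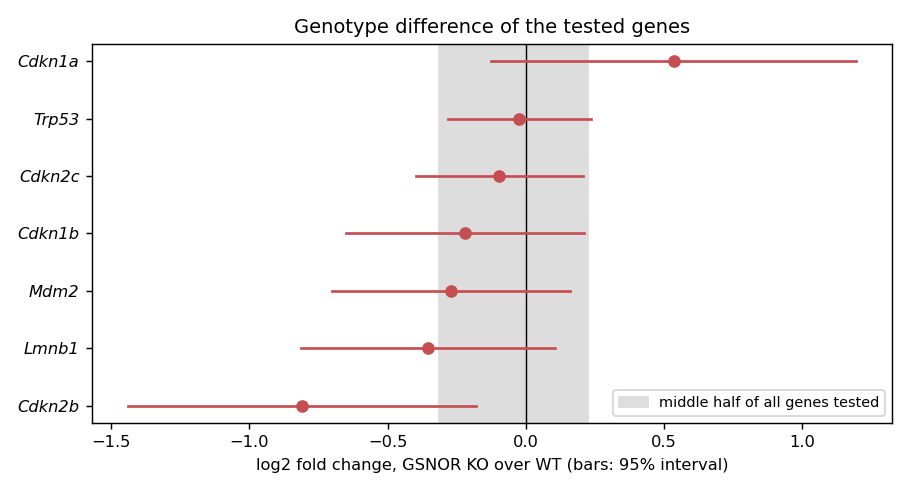
Log2FC of GSNOR KO over WT for the 7 tested genes (points) with 95% intervals (bars), over the interquartile range of all 13694 genes (grey). Cdkn2b is the only gene whose unadjusted interval lies away from 0, and it did not pass the adjusted threshold.

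Levels of different genes were compared per length, with the authors' FPKM (fragments relative to transcript length and library size). The order of mean FPKM over the 6 libraries was Cdkn2c 35.9, Cdkn1a 35.6, Cdkn1b 13.3, Mdm2 11.4, Trp53 9.14, Lmnb1 1.502, Cdkn2b 1.11 and Cdkn2a 0.211 FPKM. The ranges of Cdkn2c (32.0 to 39.6 FPKM) and Cdkn1a (23.4 to 55.1 FPKM) overlapped, and each was the higher one in 3 of 6 libraries. The range of Mdm2 (8.38 to 17.2 FPKM) overlapped those of Cdkn1b (10.9 to 16.3 FPKM) and Trp53 (8.35 to 10.3 FPKM), whose own ranges were separate. Cdkn1a lay above Cdkn1b in all 6 libraries, Trp53 above Lmnb1 in all 6 and Cdkn2b above Cdkn2a in all 6, with separate ranges. Lmnb1 was above Cdkn2b in each of the 6 libraries although their ranges overlapped. Cdkn2c and Cdkn1a exceeded 88.5% and 88.4% of the genes tested, and Cdkn2b exceeded 19.3%. The median ratio of FPKM to CPM differed between libraries, from 0.303 in WT replicate 2 to 0.365 in WT replicate 1, so FPKM are compared between genes and CPM between genotypes.

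The genes whose level followed each member most closely over the 6 libraries were found by Pearson correlation of log2 CPM among 11820 named genes whose mean reached 1 CPM. With so many genes and 6 libraries, coefficients near 1 arise for any gene, so they only describe. Kin, a nuclear DNA-binding protein gene, and Sp2, a transcription factor gene, lay nearest to Cdkn1a (r = 0.981 for both). Kat6a, a histone acetyltransferase gene, lay nearest to Cdkn1b (r = 0.996). Like Cdkn1b it was lowest in GSNOR KO replicate 3 (27.9 CPM) and WT replicate 1 (28.9 CPM). Syncrip, an RNA-binding protein gene, lay nearest to Cdkn2b (r = 0.996), with 48.4 to 51.7 CPM in WT and 36.8 to 40.0 CPM in GSNOR KO. Rph3al lay nearest to Mdm2 (r = 0.997) and Mtrf1l, a mitochondrial release factor gene, nearest to Lmnb1 (r = 0.984). None of these genes was called.

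The p53 axis was read further through 29 targets of p53, all tested. By edgeR 1 of these rose, 0 fell and 28 did not pass, against 3.9% of all genes called higher and 3.14% called lower. DESeq2 called 2 higher and 3 lower, and edgeR without WT replicate 1 called 4 higher and 4 lower. Over all genes these fits called 17.1% and 20.5% in either direction. The median log2FC was -0.14, with 11 above 0 and 18 below, against -0.04 over all genes, with 6232 above 0 and 7462 below. Sesn2, which encodes a stress-induced sestrin, rose from 11.6 ± 0.844 to 18.5 ± 2.999 CPM (log2FC 0.67, SE 0.149, edgeR adjusted p = 0.0434). Its call held in 8 of the 15 other settings. Sesn2 is also a known target of ATF4.

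A few further p53 targets were named after their values were seen. Ccng1, the cyclin G1 gene, was at 173.4, 96.2 and 88.0 CPM in WT and at 68.0, 58.6 and 63.4 CPM in GSNOR KO (log2FC -0.91, edgeR adjusted p = 0.0720). Eda2r, a TNF receptor family gene, was at 6.65, 4.09 and 3.71 CPM in WT and 2.20, 2.65 and 2.20 CPM in GSNOR KO (log2FC -1.03, adjusted p = 0.0696). All 3 GSNOR KO libraries lay below WT for both genes, a pattern seen in 19.5% of all genes tested. WT replicate 1 was the highest library for each, as it was for the muscle and macrophage marker sums, whose part was not tested. Without that library the log2FC of Ccng1 was -0.51 (edgeR adjusted p = 0.00599) and that of Eda2r -0.70 (adjusted p = 0.0798). That fit called 20.5% of all genes. Gadd45a, a growth arrest gene, had a log2FC of -0.90 (adjusted p = 0.0630), with 18.4 CPM in WT replicate 1 and 10.7 to 11.3 CPM in the other WT libraries. Without WT replicate 1 it was -0.57 (edgeR adjusted p = 0.0341). Ddb2, a DNA damage recognition gene, was higher in all 3 GSNOR KO libraries, 8.88 to 10.7 CPM against 13.6 to 14.7 CPM (log2FC 0.52, adjusted p = 0.0524). By edgeR with TMM scaling and no block none of these 4 genes passed on the 6 libraries. DESeq2, which called 17.1% of all genes tested, called all 4 of these genes, which were picked by their values. Its adjusted p was 0.0110 for Ccng1, 0.0206 for Eda2r, 0.0150 for Gadd45a and 0.00892 for Ddb2. With relative log expression size factors in place of TMM, edgeR called Ddb2 (adjusted p = 0.0454). With the replicate number as a block Gadd45a was called (edgeR adjusted p = 0.0441). Without WT replicate 1 Ddb2 was called too (log2FC 0.49, edgeR adjusted p = 0.0243). Of the p53 targets given by name, Cdkn1a, Sesn2 and Ddb2 had positive log2FC values and Mdm2, Ccng1, Eda2r and Gadd45a negative ones. Several were picked by their values, so they do not stand for the list. Over the 29 listed targets, which leave out Cdkn1a and Mdm2, 11 were above 0 and 18 below.

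Of 14 tested p53 regulators 0 were called by edgeR (median log2FC -0.09), against 7.04% of all genes. With DESeq2 1 was called, and 1 had an unadjusted edgeR p under 0.05. That one was Hipk2, which encodes a kinase that phosphorylates p53, at 41.7, 52.9 and 47.3 CPM in WT and 33.6, 34.7 and 36.3 CPM in GSNOR KO (log2FC -0.44, edgeR adjusted p = 0.0641). Its adjusted p with DESeq2 was 0.0226, and without WT replicate 1 edgeR gave 0.00651 and called 2 of the 14, both lower. DESeq2 called 17.1% of all genes, and edgeR without that library 20.5%.

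Downstream of the CDK inhibitors, 1 of 16 tested pocket protein, E2F and DREAM complex genes fell by edgeR and 0 rose, with a median log2FC of -0.19. The edgeR shares over all genes were 3.14% lower and 3.9% higher. Lin52, a subunit of the MuvB core of DREAM, which represses cell cycle genes in resting cells, fell from 11.7 ± 0.643 to 7.73 ± 0.377 CPM (log2FC -0.59, SE 0.131, edgeR adjusted p = 0.0429). The call held in 6 of the 15 other settings, and was lost with library totals only, no filter, the replicate block, FPKM and 5 of 6 leave-outs, with the log2FC between -0.64 and -0.52 throughout. DESeq2 called 2 genes of the list, both lower, and edgeR without WT replicate 1 called 1 higher and 2 lower. Over all genes these fits called 17.1% and 20.5%. Rb1, named for its role after its values were seen, was at 21.2, 29.9 and 29.8 CPM in WT and 21.3, 24.8 and 26.0 CPM in GSNOR KO (log2FC -0.17, adjusted p = 0.545). E2f1, named likewise, was at 2.85 to 3.20 CPM in WT and 1.71 to 2.16 CPM in GSNOR KO without overlap (log2FC -0.68, adjusted p = 0.115). The groups did not overlap in 8 of the 16 tested genes of this list and in 36.7% of all genes tested.

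Of 14 tested cyclin and CDK genes 1 rose and 0 fell by edgeR (median 0.09), where 7.04% of all genes were called. DESeq2 called 2 higher and 1 lower, and edgeR without WT replicate 1 called 3 higher and 1 lower. The shares of all genes called by these fits were 17.1% and 20.5%. Cdc25a, the phosphatase gene whose product activates CDK2, rose from 7.11 ± 0.287 to 12.1 ± 1.79 CPM (log2FC 0.77, SE 0.158, edgeR adjusted p = 0.0367). The call held in 7 of the 15 other settings. Cdk4, whose product the INK4 proteins bind and which was named after its values were seen, had a log2FC of 0.11 with a 95% interval of -0.13 to 0.35 (adjusted p = 0.506). Of its D-type cyclin partners, named likewise, Ccnd1 had a log2FC of 0.02 (edgeR adjusted p = 0.981), Ccnd2 one of -0.43 (adjusted p = 0.0626) and Ccnd3 one of 0.45 (adjusted p = 0.0627). The groups did not overlap for Ccnd2 and Ccnd3, as for 36.7% of all genes tested. Both were called by DESeq2 (adjusted p = 0.0296 and 0.00786) and by edgeR without WT replicate 1 (0.0297 and 0.0180).

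Of 18 tested proliferation genes 1 rose and 1 fell by edgeR, as by DESeq2, with a median of -0.22. Over all genes edgeR called 7.04% and DESeq2 17.1%. Bub1b, a spindle checkpoint gene, rose from 4.51 ± 0.597 to 12.5 ± 0.756 CPM (log2FC 1.47, SE 0.161, edgeR adjusted p = 0.0178), a call that held in 11 of the 15 other settings. Mki67, the proliferation marker Ki-67, fell from 1.97, 3.17 and 6.77 CPM in WT to 0.899, 0.853 and 0.899 CPM in GSNOR KO (log2FC -2.16, SE 0.479, edgeR adjusted p = 0.0433), a call that held in 8 of the 15. WT replicate 3 held the highest Mki67 level, and the lymphocyte marker sum was also highest there, at 133.0 CPM. That sum was 26.0 CPM in WT replicate 1, 20.6 CPM in WT replicate 2 and at most 15.96 CPM in GSNOR KO. Of WT replicates 1 and 2, replicate 2 had the higher Mki67 level and the lower lymphocyte sum. The part of lymphocytes in the Mki67 difference was not tested. Without WT replicate 3 the log2FC of Mki67 was -1.50 (adjusted p = 0.0599).

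Of 23 tested genes of the senescence-associated secretory phenotype, the set of secreted factors that senescent cells release, 2 fell, 0 rose and 21 did not pass by edgeR. The edgeR shares over all genes were 3.14% lower and 3.9% higher. DESeq2 called 8, all lower, and edgeR without WT replicate 1 called 7, all lower, in fits that called 17.1% and 20.5% of all genes. The median log2FC was -0.83, against -0.04 over all genes, and 19 of the 23 were below 0, as were 7462 of all 13694 genes. Plau, which encodes urokinase, fell from 32.6 ± 5.39 to 20.4 ± 1.87 CPM (log2FC -0.68, SE 0.147, edgeR adjusted p = 0.0418), a call that held in 9 of the 15 other settings. Il6, named after its values were seen, had 5 counts in WT replicate 1, 1 count in GSNOR KO replicate 1 and 0 in the other libraries, and was not tested. Macrophages and fibroblasts also make many of these factors, and the macrophage sum was 301.1 to 700.9 CPM in WT and 134.7 to 186.5 CPM in GSNOR KO. Its part in the result was not tested. Without WT replicate 1 the list median was -0.47.

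**Figure D3:**
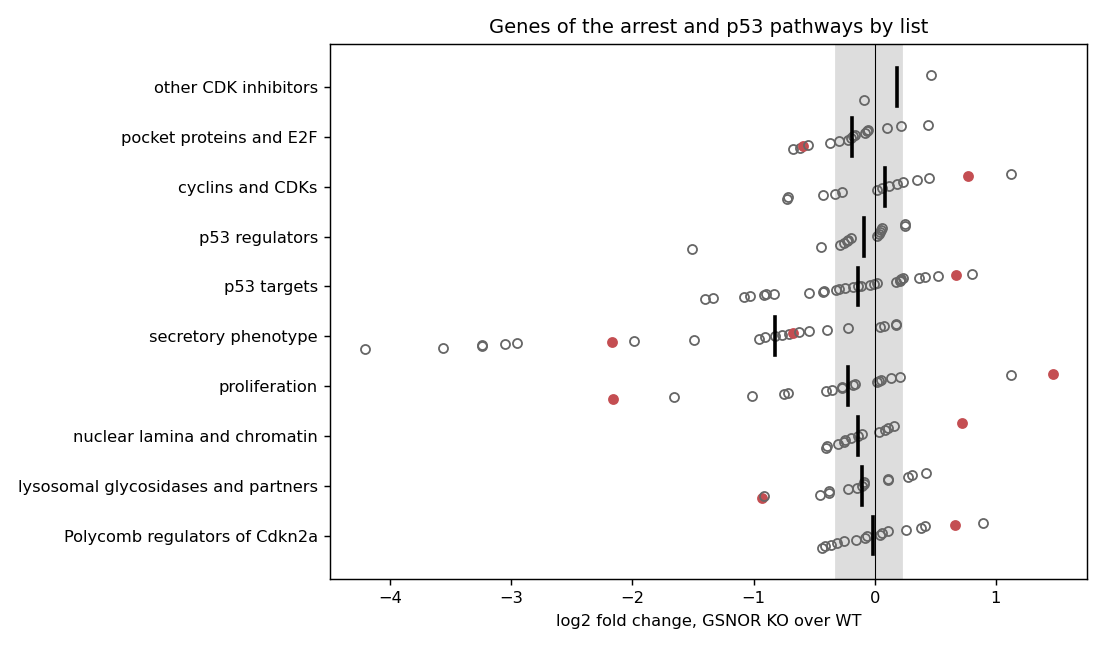
Log2FC of GSNOR KO over WT for every tested gene of the 10 pathway lists (filled points called by edgeR at an adjusted p under 0.05, open points not), with each list's median as a black bar and the interquartile range of all genes in grey. Most medians lie within the grey range, and that of the secretory list lies at -0.83.

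In the lamina and chromatin list 1 of 13 tested genes rose by edgeR, Lmnb2, and 0 fell (median -0.14). The edgeR share over all genes was 7.04%. Without WT replicate 1 edgeR called 3 higher and 2 lower, in a fit that called 20.5% of all genes. Of 15 lysosomal glycosidases and their partners, the family around beta-galactosidase, 1 fell and 0 rose by edgeR (median -0.11). DESeq2 called 2 higher and 1 lower, and edgeR without WT replicate 1 called 3 higher and 1 lower. Over all genes these fits called 17.1% and 20.5%. The gene that fell by edgeR was Manba, the beta-mannosidase gene, from 9.89 ± 0.387 to 5.20 ± 0.180 CPM (log2FC -0.93, SE 0.143, edgeR adjusted p = 0.0215), a call that held in 10 of the 15 other settings. Manba lies on chromosome 3 at 135485611 to 135571404, the chromosome that carries Adh5 at 138443093 to 138455499. Linkage to the deleted gene and the effect of its loss cannot be told apart for Manba in this design.

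Of 16 Polycomb and other regulators of the Cdkn2a locus 1 rose and 0 fell by edgeR (median -0.01), where 7.04% of all genes were called. DESeq2 called 3, all higher, and edgeR without WT replicate 1 called 2 higher and 1 lower. The shares of all genes called by these fits were 17.1% and 20.5%. Id1, an inhibitor of helix-loop-helix factors known to restrain p16 expression, rose from 147.9 ± 16.6 to 233.6 ± 17.2 CPM (log2FC 0.66, SE 0.129, edgeR adjusted p = 0.0332), a call that held in 9 of the 15 other settings. Cdkn2a itself was too low to be read beside it.

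The size of each member's difference was also read with 1 library left out at a time. Cdkn1a stayed above 0, from 0.25 to 0.80, and Cdkn2b, Lmnb1, Mdm2 and Cdkn1b stayed below 0 in all 6 leave-outs. Lmnb1 ranged from -0.43 to -0.21 (the latter without WT replicate 3), Mdm2 from -0.41 to -0.03 and Cdkn1b from -0.37 to -0.08. Trp53 ranged from -0.05 to 0.04 and changed sign, as did Cdkn2c, from -0.15 to 0.002.

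**Figure D4:**
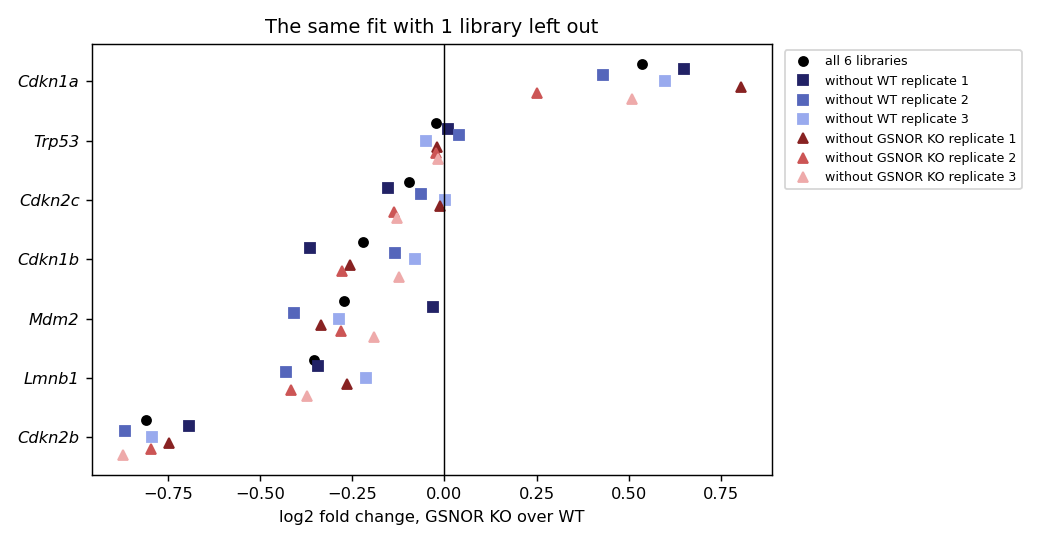
Log2FC of GSNOR KO over WT for the 7 tested genes with all 6 libraries (black circles) and with each library left out (squares for WT, triangles for GSNOR KO). Cdkn2b stays between -0.87 and -0.69, while Cdkn1a moves between 0.25 and 0.80.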

How the data were processed

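Polyadenylated RNA of 6 fat samples was enriched with poly-T magnetic beads and sequenced, per the labels' protocols. The authors deposited raw counts per gene with no normalization and FPKM per library, per the file headers, and the build was GRCm38 (mm10), per the submitters' processing notes. Aligner, counter, strand setting and FPKM library size: not given in the sources used here. Reads of genes that overlap may therefore be shared. In the authors' deposited table of a DESeq comparison the adjusted p of the 7 tested members lay between 0.593 and 1. Gene positions are from GENCODE M21.

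Counts were tested with edgeR 4.0.16 in R 4.3.3: filterByExpr kept 13694 of 22695 rows, TMM scaled the libraries, and the robust quasi-likelihood test compared GSNOR KO with WT, with Benjamini-Hochberg adjustment over all genes tested. Log2FC is the log2 fold change, its SE is its size over the root of F, and 95% intervals use the fit's degrees of freedom. The steps were tested on counts simulated with the same dispersion for all genes and no outlying library. That test therefore does not cover a library that stands apart. With 3 against 3 samples an exact permutation test cannot go below 0.1, so single genes were judged by the model alone. Alternatives used DESeq2 1.42.0, limma 3.58.1 (voom, and log2(FPKM + 0.1)), other scalings and filters, the replicate number as a block and leave-outs.

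Members and lists were chosen with earlier results of these data known. Of 258 list entries 248 were found by symbol, 3 more by identifier and 7 by neither. Named were the members, Adh5, and up to 4 called genes per pathway list or else the one with the smallest p. Genes marked in the text as named after their values were seen were added. Of the 2 genes found nearest each tested member only some are named, with none for Cdkn2c or Trp53. The result of 1 called gene of the secretory list is not reported here.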

Additional observations from a re-analysis of the deposited data

How the results depend on the processing

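Members called stayed at 0 in 14 of the 15 other settings and was 1, Cdkn1b, without WT replicate 1, so it ranged from 0 to 1 over the leave-outs. The count of all genes called, 964, was 2344 with DESeq2 and 258 with log2(FPKM + 0.1), and ranged from 3 to 2844 over the leave-outs. It was 3 without GSNOR KO replicate 2 or 3, 5 without GSNOR KO replicate 1, 2844 without WT replicate 1 and 13 with WT replicate 2 left out. The split was 314 higher and 406 lower with library totals only, against 534 and 430. With log2(FPKM + 0.1) the sign turned for Cdkn2c (log2FC 0.0413) and Rb1 (0.0614). Over the leave-outs Cdkn2c ranged from -0.153 to 0.00177, turning when WT replicate 3 was left out, and Trp53 from -0.0499 to 0.0401, turning when WT replicate 1 (0.01) or 2 (0.0401) was left out. The cause was not tested. The 10 genes of the pathway lists called in the 6 libraries kept their sign in all 150 other values, and the call in 82 of these, 15 of the 60 leave-outs among them. With the replicate number as a block 0 members and 884 genes were called, 376 higher and 508 lower. The numbers are not shown to pair the samples: deviations from the group means correlated at 0.159, 0.137 and -0.0589 for numbers 1, 2 and 3. Depth limits Cdkn2a, with 1 to 5 counts per library.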
